A study of Mus musculus with 12 samples.

Results

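Mitochondrial ribosomal proteins were taken as the protein-coding genes whose GENCODE M21 symbol is Mrpl or Mrps followed by a number. The deposited table held 77 such genes among 17283 genes, 48 named for the large subunit (Mrpl) and 29 for the small subunit (Mrps). M21 annotates 78 of them, and the remaining gene, Mrpl53, was not analysed here. They lie on 17 chromosomes, and 14 to 1656 fragments per library were assigned to each.

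The mitochondrial ribosome translates the few mRNAs of the mitochondrial genome, all of which encode membrane subunits of the respiratory chain and ATP synthase. Its ribosomal RNAs come from the mitochondrial genome, whereas its proteins are encoded in the nucleus, translated in the cytosol and imported. Some of these proteins have a counterpart in the bacterial ribosome and others exist only in mitochondrial ribosomes, where they clad a shortened RNA core. Loss of single members in people causes respiratory chain defects that often affect the brain and heart.

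RNA of mouse medial prefrontal cortex (mPFC) was sequenced in 4 groups of 3 libraries. C57 mice, labelled WT, received the solvent DMSO (C57 vehicle) or ASIV (C57 ASIV), and BTBR mice, labelled an inbred strain, received DMSO (BTBR vehicle) or ASIV (BTBR ASIV). BTBR is used as a mouse model of autism, and ASIV is astragaloside IV, a saponin of Astragalus root. All mice were injected into the peritoneum for 7 days. The sources used here give neither age nor sex, nor do they state that each library came from 1 animal, so p-values measure the spread between these libraries.

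Levels are FPKM as deposited, that is, fragments divided by gene length and by library depth. The length that gave whole fragments spans all annotated exons of a gene and can far exceed a single transcript. For Mrpl33 it was 7326 bases, against 478 for the annotated transcript with the longest coding sequence, and for Mrpl34 both were 607. The order of different genes by level therefore depends on that length. Differences were tested on log2(FPKM + 1) with limma across all 13586 genes that reached 1 FPKM in at least 3 of the 12 libraries, a filter that all 77 members passed. A gene was called at a Benjamini-Hochberg adjusted p under 0.05 over those genes. Each difference is given with its standard error (SE) and each level with its standard deviation (SD, n = 3). On this scale the change of a gene near 1 FPKM is understated.

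Depth was similar in all libraries, from 16166327 to 18660035 fragments. The BTBR vehicle libraries stood apart from the other 9 in their share of mitochondrial fragments. Genes of the mitochondrial genome held 0.614 to 1.16% of their fragments, against 5.01 to 5.41% in C57 vehicle, 3.5 to 5.38% in C57 ASIV and 3.73 to 4.14% in BTBR ASIV. In the marker lists fixed for the check, 1 of 6 neuronal markers was called lower in BTBR vehicle, Snap25 (288.9 ± 23.8 FPKM in C57 vehicle against 137.7 ± 24.7). The summed neuronal list ran from 909.7 to 1013 FPKM in C57 vehicle and from 694.7 to 830.8 FPKM in BTBR vehicle. It was likewise low in BTBR ASIV (695.3 to 811.6 FPKM), against 862 to 1078 FPKM in C57 ASIV, so the low sum was shared by both BTBR groups. Of 4 microglial markers 2 were lower, P2ry12 (15.9 ± 1.29 against 3.71 ± 1.32 FPKM) and Cx3cr1 (14.5 ± 1.54 against 7.33 ± 1.8 FPKM), and both rose under ASIV in BTBR. Csf1r (26.8 ± 3.36 against 28.5 ± 4.59 FPKM) and Tmem119 (16.2 ± 2.46 against 20.8 ± 3.57 FPKM) had higher means in BTBR vehicle and were not called. The summed microglial list overlapped, from 66.7 to 81.5 FPKM in C57 vehicle and from 50.4 to 70.8 FPKM in BTBR vehicle. Of 3 endothelial markers only Cldn5 was higher (55.2 ± 3.99 against 88.3 ± 13.4 FPKM), and it fell under ASIV. Astrocytes had 1 of 4 higher and 1 lower, oligodendrocytes 1 of 4 higher, blood 1 of 2 lower and striatum 0 of 4 called. Striatal sums ran from 27.8 to 227.5 FPKM among the BTBR ASIV libraries. Beside these counts, 43.1% of all genes tested were called between the vehicle groups, so the counts alone do not show a change of cell types. Markers of the choroid plexus stayed between 0.404 and 9.6 FPKM in all libraries. The part of these marker differences in the results below was not tested, and in such bulk samples fewer cells of a type and less RNA per cell cannot be told apart.

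Levels of the members spanned a wide range, and their order depends on the exon length by which each was divided. The median of their mean level over the 12 libraries was 9.69 FPKM. The highest was Mrpl34 (mean 55.4 FPKM), a small protein of the large subunit with a bacterial counterpart. Mrps21, of the small subunit, followed at 42.5 FPKM, and then came Mrpl41 (38.4), Mrpl28 (33.2) and Mrps12 (32.9). Mrpl28 and Mrps12 have counterparts in bacteria, and Mrps12 belongs to the site where codons are read. Lowest were Mrps30 (1.72 FPKM), which despite its symbol sits in the large subunit, Mrpl32 (1.79), Mrps10 (2.02), Mrps35 (2.05) and Mrpl15 (2.09). The low end changed between groups. In C57 vehicle it was Mrpl33 (1.61 ± 0.184) and Mrps30 (1.65 ± 0.047), and in BTBR vehicle Mrps18b (0.681 ± 0.342) and Mrpl42 (0.945 ± 0.257). Each pair differed by less than the sum of its SDs. Among the 5 highest, the order in C57 vehicle was Mrpl34 (41.5 ± 2.12), Mrps12 (36.7 ± 2.85), Mrps21 (34.98 ± 4.31), Mrpl41 (32.7 ± 1.34) and Mrpl28 (28.3 ± 2.53), and neighbours in it from Mrpl34 to Mrpl41 differed by less than the sum of their SDs. In BTBR vehicle the same 5 ran Mrpl34 (91.8 ± 15.8), Mrps21 (60.5 ± 4.36), Mrpl41 (44.1 ± 2.84), Mrpl28 (43.1 ± 5.83) and Mrps12 (24.1 ± 3.33). Mrps12 was thus the second of this set in C57 vehicle and its last in BTBR vehicle.

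Summed over all members, the level was 932.7 ± 19.5 FPKM in C57 vehicle and 1046 ± 15.2 FPKM in BTBR vehicle. It was 949.1 ± 109.7 FPKM in C57 ASIV and 931.7 ± 10.1 FPKM in BTBR ASIV. The BTBR vehicle sums (1030 to 1061 FPKM) lay above those of C57 vehicle (910.4 to 946.3) and BTBR ASIV (924.7 to 943.3). In C57 ASIV replicate 3 reached 1076 FPKM and the other 2 libraries 882.8 and 888.9. Members of high level weigh most in such a sum. Between the vehicle groups Mrpl34 went from 41.5 to 91.8 FPKM and Mrpl52 from 18.0 to 49.9, while the median log2 difference of the members was -0.04. The sums were neither tested nor rescaled for the lower share of mitochondrial fragments in BTBR vehicle.

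The balance among members was described as follows. For each library the difference in log2(FPKM + 1) of every member from its C57 vehicle mean was taken. A C57 vehicle library was set against the mean of the other C57 vehicle libraries, a smaller reference than for the other groups. The SD of these differences over the 77 members measured how far the proportions had moved. It was 0.125 ± 0.021 in C57 vehicle, 0.142 ± 0.014 in C57 ASIV, then 0.662 ± 0.072 for BTBR vehicle and 0.224 ± 0.021 for BTBR ASIV (mean ± SD over 3 libraries). Over all genes tested the same measure was 0.184, 0.209, 0.574 and 0.344. The heat map of the members by library shows this as a band of strong colours in the 3 BTBR vehicle libraries.

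**Figure D1:**
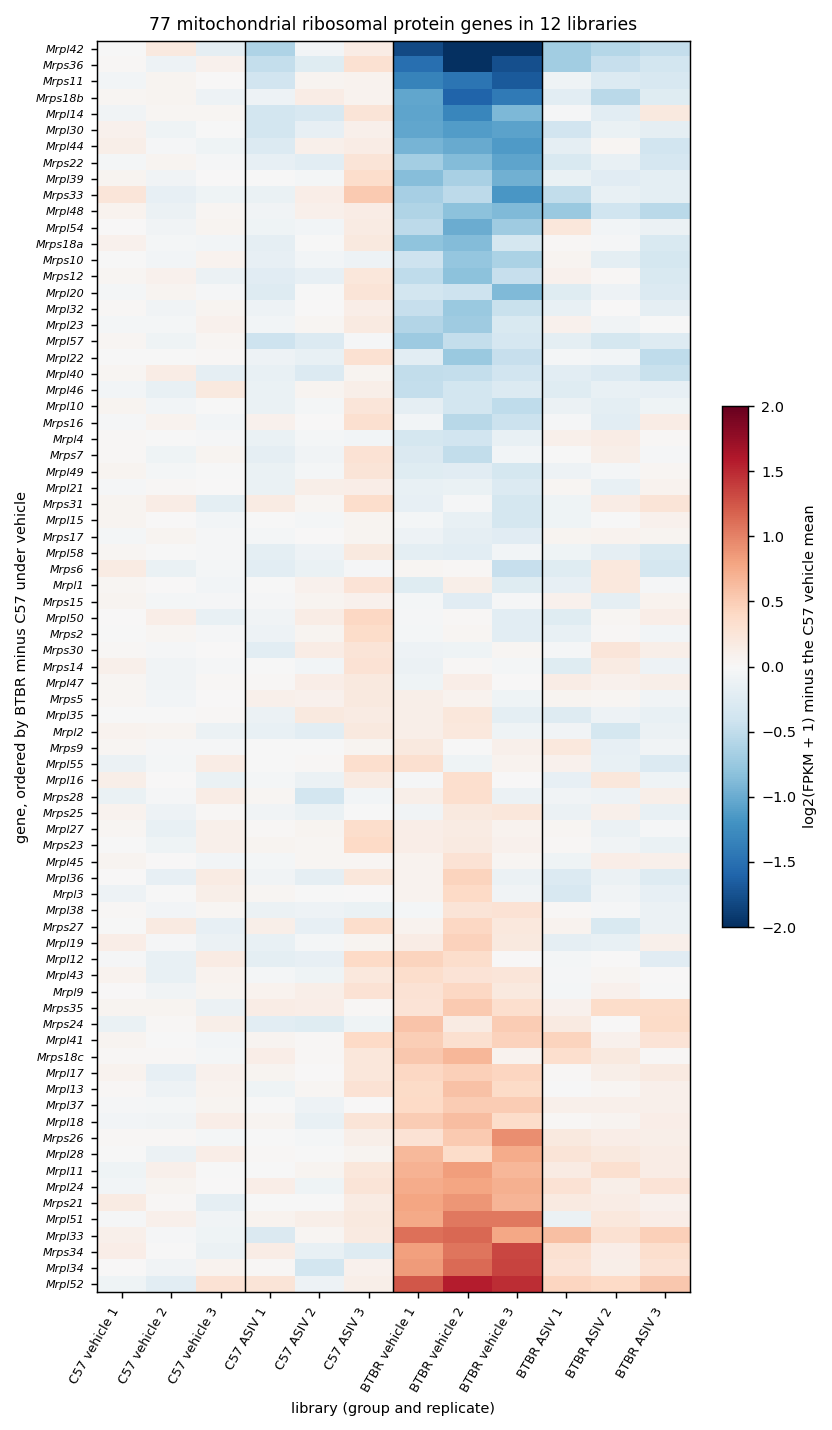
Each row is 1 of 77 members, ordered by its difference between BTBR and C57 under vehicle, and each column is 1 of 12 libraries; colour gives log2(FPKM + 1) minus the C57 vehicle mean, cut at -2 and 2. The 3 BTBR vehicle libraries hold the strongest blue (Mrpl42 and Mrps36 at the top) and red (Mrpl52 and Mrpl34 at the bottom), and the BTBR ASIV libraries are paler at both ends.

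BTBR was first compared with C57, both given vehicle, for the difference between the model and reference strains. Members moved both ways: 20 of 77 were higher in BTBR and 25 were lower, and 32 were not called. Among all genes tested 22.3% were higher, 20.8% were lower and 43.1% were called in either direction, against 58.4% of the members. The median log2 difference was -0.04 over the members and 0.01 over all genes. Differences of members ran from -2.01 to 1.43. With libraries rescaled on the FPKM outside the mitochondrial genome, 14 were higher and 30 lower, so that 31.8% of calls were higher in place of 44.4%, and the median of all genes moved to -0.09.

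Among the members lower in BTBR vehicle were proteins of the large subunit that bacteria lack. Mrpl42 (chromosome 10, 95480805 to 95501940, minus strand, GRCm38), had 6.71, 7.86 and 5.9 FPKM in the C57 vehicle libraries and 1.23, 0.731 and 0.874 FPKM in those of BTBR vehicle. No BTBR vehicle library came near the C57 range. The log2 difference was -2.01 ± 0.17 (adjusted p = 7.07e-06), the largest fall of any member. Mrpl44, which has the fold of an RNA-cutting enzyme and lies at the surface of the large subunit (chromosome 1, 79776018 to 79781445), had 11.1, 10.03 and 9.54 FPKM in C57 vehicle and 4.87, 4.56 and 4.14 in BTBR vehicle. The ranges were well separated, with a log2 difference of -1.02 ± 0.13 (adjusted p = 9.3e-05).

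Of the small subunit, Mrps11 and Mrps18b showed the largest falls. Mrps11, a conserved protein of the platform of the subunit (chromosome 7, 78783119 to 78792989), had 6.61, 7.2 and 6.97 FPKM in C57 vehicle and 2.14, 1.89 and 1.48 FPKM in BTBR vehicle, a log2 difference of -1.49 ± 0.13 (adjusted p = 7.8e-06). Both sets of libraries were tight and far apart. Mrps18b (chromosome 17, 35910379 to 35916389) had 3.36, 3.41 and 2.94 FPKM against 1.06, 0.392 and 0.592 FPKM, a log2 difference of -1.35 ± 0.14 (adjusted p = 2.79e-05). It rests on as few as 14 fragments in a library, and since its BTBR vehicle level was below 1 FPKM the scale understates its change. Mrps22, a small-subunit protein whose loss in people causes a mitochondrial disease of infancy, went from 3.38 ± 0.149 to 1.42 ± 0.315 FPKM (log2 difference -0.86 ± 0.13, adjusted p = 0.000314).

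Mrps36 carries a ribosomal name but is now known as a component of the 2-oxoglutarate dehydrogenase complex of the citric acid cycle, and it was placed in neither subunit. Its levels were 10.8, 9.83 and 11.2 FPKM in C57 vehicle and 3.08, 1.47 and 2.43 FPKM in BTBR vehicle (chromosome 13, 100735955 to 100744659). All BTBR vehicle values were far under the C57 ones, and the log2 difference was -1.83 ± 0.20 (adjusted p = 3.84e-05). Mrps36 has processed pseudogenes that were not analysed here, among them Mrps36-ps1 (99.35% identity over 306 coding bases) and Mrps36-ps2 (99.02%). How fragments that match them were assigned is not given, so its level is uncertain. A pair of conserved proteins of the large subunit completed the 8 largest falls. Mrpl14 went from 17.1 ± 0.815 to 7.57 ± 1.23 FPKM (-1.09 ± 0.16, adjusted p = 0.000272) and Mrpl30 from 10.4 ± 0.679 to 4.38 ± 0.13 FPKM (-1.07 ± 0.11, adjusted p = 2.88e-05).

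Higher in BTBR vehicle, Mrpl52 led. This protein of the large subunit without a bacterial counterpart (chromosome 14, 54426909 to 54429756) had 16.8, 15.2 and 22.1 FPKM in C57 vehicle and 43.5, 55.1 and 51.2 FPKM in BTBR vehicle. The lowest BTBR vehicle library was well above the highest C57 one, and the log2 difference was 1.43 ± 0.14 (adjusted p = 1.57e-05). Mrpl34 (chromosome 8, 71464959 to 71465747) had 41.8, 39.3 and 43.5 FPKM against 75.8, 92.0 and 107.4 FPKM, a log2 difference of 1.11 ± 0.14 (adjusted p = 7.87e-05). Its BTBR vehicle libraries differed much among themselves but none reached down to the C57 range.

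Mrps34, a small-subunit protein needed for the stability of that subunit, had 14.6, 13.2 and 12.2 FPKM in C57 vehicle and 24.3, 29.1 and 34.9 FPKM in BTBR vehicle (log2 difference 1.08 ± 0.14, adjusted p = 9.19e-05). In M21, 63.4% of its exon bases are shared with Mapk8ip3 on the opposite strand and 36.97% with Nme3 on the same strand, which was not analysed here, and whether counting used the strand is not given in the sources used. Mapk8ip3 itself stood at -0.12 ± 0.09 (adjusted p = 0.3). Mrpl33, a small conserved protein, went from 1.61 ± 0.184 to 4.26 ± 0.689 FPKM (1.01 ± 0.14, adjusted p = 0.000146) and Mrpl51 from 8.75 ± 0.604 to 18.0 ± 2.15 FPKM (0.96 ± 0.11, adjusted p = 4.26e-05). Completing the 8 largest rises were Mrps21 (0.78 ± 0.10), Mrpl24 (0.74 ± 0.10) and Mrpl11 (0.73 ± 0.09), the last of these at the base of the stalk that receives translation factors. The members named in these paragraphs were picked from called members with 3 BTBR vehicle libraries beyond all 3 C57 vehicle libraries, so their separation is built in. Such separation held for 49 of the 77 members and for 53.3% of all genes tested.

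**Figure D2:**
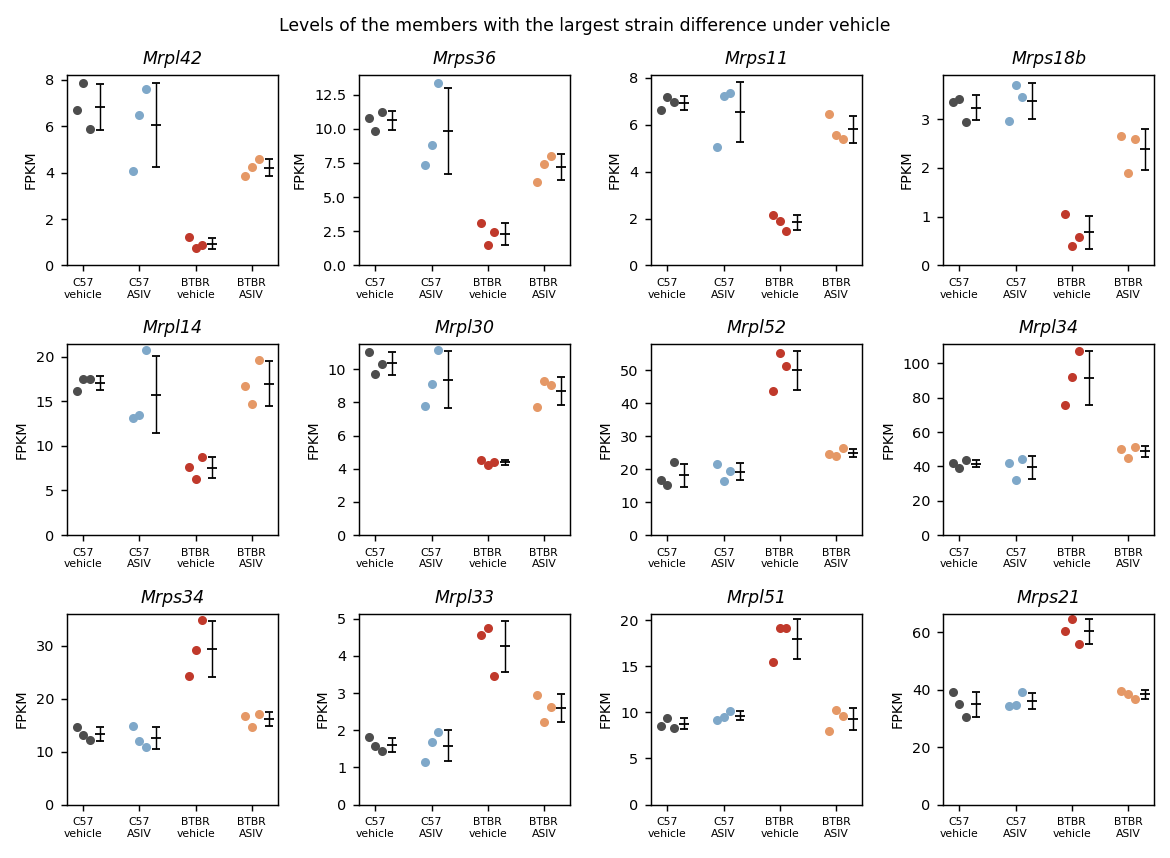
FPKM of 12 members in each library (points, coloured by group) with the mean and SD of 3 libraries (bars); each axis starts at 0. The first 6 panels show members that were lower in BTBR vehicle and the last 6 members that were higher. The BTBR ASIV points lie nearer to the C57 points in every panel. The panels were chosen by the largest differences of BTBR vehicle, so this is partly built in.

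Promoters of the 2 leading members in each direction are shown, a choice made from the differences in these same data. Sequences are from RefSeq (GRCm38.p6) and run from 250 bases before to 50 after the gene start, 5′ to 3′ on the strand of the gene. Capitals mark the ETS-type motif CCGGAAG, or CTTCCGG on the other strand, a site class of the NRF2/GABP factor, which is known for driving nuclear genes of mitochondria. Mrpl42 lies at chr10:95501900-95502199 on the minus strand, Mrps36 at chr13:100744610-100744909 on the minus strand, Mrpl52 at chr14:54426659-54426958 on the plus strand and Mrpl34 at chr8:71464676-71464975 on the plus strand.
Mrpl42: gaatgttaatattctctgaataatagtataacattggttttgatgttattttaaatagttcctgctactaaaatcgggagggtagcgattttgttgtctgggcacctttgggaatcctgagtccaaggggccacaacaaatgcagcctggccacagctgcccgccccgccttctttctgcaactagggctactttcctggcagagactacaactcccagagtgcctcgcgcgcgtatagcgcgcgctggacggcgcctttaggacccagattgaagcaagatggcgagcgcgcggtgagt
Mrps36: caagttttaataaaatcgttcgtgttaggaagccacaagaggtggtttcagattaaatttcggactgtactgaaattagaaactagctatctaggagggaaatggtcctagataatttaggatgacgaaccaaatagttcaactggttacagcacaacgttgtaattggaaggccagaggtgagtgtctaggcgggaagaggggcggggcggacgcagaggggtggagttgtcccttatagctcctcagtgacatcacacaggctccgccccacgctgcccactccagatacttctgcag
Mrpl52: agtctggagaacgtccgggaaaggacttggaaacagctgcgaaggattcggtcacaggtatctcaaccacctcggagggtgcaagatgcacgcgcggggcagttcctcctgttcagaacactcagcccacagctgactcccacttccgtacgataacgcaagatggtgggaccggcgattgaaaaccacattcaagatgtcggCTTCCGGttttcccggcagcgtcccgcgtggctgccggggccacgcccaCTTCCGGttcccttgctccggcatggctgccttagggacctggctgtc
Mrpl34: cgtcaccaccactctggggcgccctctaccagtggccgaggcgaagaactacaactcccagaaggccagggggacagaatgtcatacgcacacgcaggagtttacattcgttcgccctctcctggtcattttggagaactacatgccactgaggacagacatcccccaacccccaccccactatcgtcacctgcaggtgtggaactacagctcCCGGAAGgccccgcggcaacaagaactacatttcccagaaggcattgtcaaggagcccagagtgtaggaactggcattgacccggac
Mrpl52 holds the motif at positions -47 and 3 from the gene start and Mrpl34 at -37, and neither of the other 2 windows holds these letters.

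A RefSeq promoter was matched for 68 of the 77 members, and the motif CCGGAAG, searched on both strands, was in 25 of them (36.8%). It was in 19.3% of 9560 promoters of tested protein-coding genes and in 9.93% of all 27025 promoters. By direction under vehicle, 10 of 17 promoters of members higher in BTBR, 8 of 23 of lower members and 7 of 28 of those not called held it. For GCGC, any base and then TGCGC, the motif of NRF1, another activator of nuclear genes of mitochondria, the counts were 13 of 68 members (19.1%) and 11.4% of tested protein-coding genes, with 4 of 17 higher, 6 of 23 lower and 3 of 28 members not called. ATGGCGG, a core of YY1 sites, was in 12 of 68 (17.6%) against 9.37%, with 2, 3 and 7 in the same order. CCAAT was in 26 of 68 (38.2%) against 42.8% and TATAAA in 5 of 68 (7.35%) against 8.29%. All were searched on both strands, and these are matches of letters alone. An NRF1 and an ETS match can share no more than an end base.

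By place in the ribosome, both directions occurred in each class. Of 30 large-subunit proteins with a bacterial counterpart, 9 were higher and 8 lower in BTBR vehicle, with a median log2 difference of 0.10. Among 20 large-subunit proteins found only in mitochondrial ribosomes, 5 were higher and 10 lower (median -0.21). The small subunit had 3 higher and 3 lower of 16 conserved proteins (median -0.08) and 3 higher and 3 lower of 10 mitochondrial ones (median 0.12). In this order 56.7, 75, 37.5 and 60% of a class were called, beside 43.1% of all genes (22.3% higher and 20.8% lower). Differences between these classes, or from all genes, were not tested. The higher conserved small-subunit proteins numbered 1 without C57 vehicle replicate 1 or BTBR vehicle replicate 1, and 1 against 6 lower ones with libraries rescaled without the mitochondrial genome.

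The 3 paralogs Mrps18a, Mrps18b and Mrps18c, which descend from a single bacterial protein, did not move together. Mrps18a, which sits in the large subunit, went from 8.55 ± 0.497 to 5.05 ± 1.26 FPKM (-0.68 ± 0.15, adjusted p = 0.00274). Mrps18c, the one closest to the bacterial protein, went from 6.56 ± 0.188 to 9.29 ± 2.07 FPKM (0.42 ± 0.14, adjusted p = 0.0248). With Mrps18b at -1.35, 2 of the 3 were lower and 1 was higher in BTBR vehicle, and for each the groups did not overlap. The call of Mrps18c was lost in 8 alternatives (adjusted p = 0.0548 to 0.114), among them leaving out any C57 vehicle library or BTBR vehicle replicate 1 or 2, limma voom, only the libraries compared and rescaling without the mitochondrial genome.

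Other members of known role were not called or moved less. Mrpl12, which also binds the mitochondrial RNA polymerase, had 19.4 ± 2.26 FPKM in C57 vehicle against 23.7 ± 3.89 FPKM with BTBR vehicle (0.27 ± 0.16, adjusted p = 0.204). Mrpl58, which frees stalled peptides from the ribosome, had 10.3 ± 0.229 and 9.16 ± 0.62 FPKM (-0.15 ± 0.11, adjusted p = 0.274). With libraries rescaled without the mitochondrial genome it was called lower (-0.27, adjusted p = 0.0344). Mrps30 had 1.65 ± 0.047 and 1.56 ± 0.145 FPKM (-0.05 ± 0.12, adjusted p = 0.765). Mrps12 was lower in BTBR vehicle, from 36.7 ± 2.85 to 24.1 ± 3.33 FPKM (-0.60 ± 0.15, adjusted p = 0.00631).

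ASIV was then compared with vehicle within BTBR, for the effect of the compound in that strain. In BTBR mice given ASIV, 17 of 77 members rose and 16 fell, 42.9% in all. Over all genes tested 13.7% rose and 15.4% fell, 29.1% in either direction. Rescaling without the mitochondrial genome gave 27 rises and 9 falls (75% of calls rose, against 51.5%), with the median of all genes at 0.11, and in a fit of only the 6 libraries compared 25 of the 33 calls were kept. The median log2 difference was -0.02 for the members and -0.01 for all genes, and members ran from -0.97 to 1.43. This comparison shares the BTBR vehicle libraries with the strain comparison, so an opposite sign in the 2 is partly built in and the values are set side by side as a description only.

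Among the members that rose, Mrpl42 had 3.83, 4.25 and 4.57 FPKM in BTBR ASIV, beside 1.23, 0.731 and 0.874 in BTBR vehicle. All 3 were above the BTBR vehicle range and below the C57 vehicle range, and the log2 difference was 1.43 ± 0.17 (adjusted p = 0.000216). Mrps36 had 6.13, 7.46 and 8.02 FPKM and rose by 1.33 ± 0.20 (adjusted p = 0.000704), and it too stayed under all C57 vehicle libraries. Mrps11 had 6.47, 5.57 and 5.38 FPKM, a rise of 1.27 ± 0.13 (adjusted p = 8.27e-05). Its BTBR ASIV values lay just under the C57 vehicle range and within that of C57 ASIV.

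Mrpl14 reached 16.8, 14.7 and 19.6 FPKM (1.07 ± 0.16, adjusted p = 0.00066), around the level of C57 vehicle. Mrps18b had 2.65, 1.9 and 2.59 FPKM (1.02 ± 0.14, adjusted p = 0.000427), between the 2 vehicle groups. For Mrpl44 the level was 9.01 ± 1.44 FPKM (0.85 ± 0.13, adjusted p = 0.000699) and for Mrpl30 it was 8.69 ± 0.835 FPKM (0.85 ± 0.11, adjusted p = 0.00035). Mrpl54, a large-subunit protein that bacteria lack, went from 10.9 ± 1.9 to 19.1 ± 2.62 FPKM (0.77 ± 0.13, adjusted p = 0.00109), close to the 18.7 ± 0.896 FPKM of C57 vehicle. Mrps12 rose from 24.1 ± 3.33 to 35.2 ± 5.08 FPKM (0.53 ± 0.15, adjusted p = 0.0175), a call that was lost without BTBR vehicle replicate 2 or BTBR ASIV replicate 1 or 2 (adjusted p = 0.0563 to 0.065).

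The members that fell under ASIV were led by Mrpl52, with 24.4, 23.9 and 26.3 FPKM in BTBR ASIV. These values were above every C57 vehicle library and under every BTBR vehicle one, and the log2 difference was -0.97 ± 0.14 (adjusted p = 0.000453). Mrpl34 had 50.2, 44.9 and 51.1 FPKM (-0.89 ± 0.14, adjusted p = 0.000755), under all BTBR vehicle libraries and over all C57 vehicle ones. Mrpl51 had 7.99, 10.3 and 9.66 FPKM (-0.88 ± 0.11, adjusted p = 0.000229), overlapping both C57 groups. Mrps34 fell to 16.1 ± 1.28 FPKM (-0.82 ± 0.14, adjusted p = 0.00116) and Mrps21 to 38.4 ± 1.43 FPKM (-0.64 ± 0.10, adjusted p = 0.000859).

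Smaller falls were seen in Mrpl33 (-0.54 ± 0.14), Mrpl11 (-0.52 ± 0.09) and Mrpl24 (-0.52 ± 0.10).

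**Figure D3:**
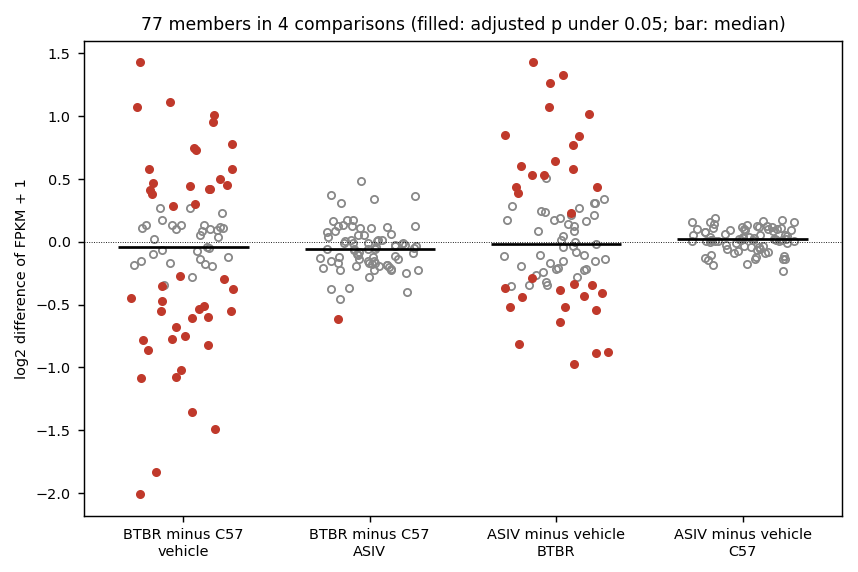
Log2 difference of FPKM + 1 for the 77 members (points, spread sideways for view) in 4 comparisons; filled points have an adjusted p under 0.05 and the bar is the median. Members spread from -2.01 to 1.43 between the strains under vehicle and from -0.97 to 1.43 under ASIV in BTBR, with medians of -0.04 and -0.02, and 1 and 0 members were called in the other 2 comparisons.

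ASIV in C57 mice asks for the effect of the compound in the reference strain. By limma 0 of 77 members were called, and 0 had an unadjusted p under 0.05. Among all genes 0.0% were called and 3.07% had an unadjusted p under 0.05. limma voom on recovered fragments also called 0 members. The members closest to a call were Mrpl57, a large-subunit protein, with 10.5 ± 0.573 FPKM in C57 vehicle and 8.82 ± 1.37 in C57 ASIV (-0.23 ± 0.12, unadjusted p = 0.0708, adjusted p = 0.9999), Mrps24 (-0.18 ± 0.13) and Mrpl30 (-0.14 ± 0.11). In the other direction they were Mrpl9 (0.16 ± 0.09), Mrps23 (0.17 ± 0.10) and Mrps5 (0.13 ± 0.08). None of these 6 passed the test, which does not show that levels were equal.

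Whether the response to ASIV differed between the strains was tested by the interaction term, the response in BTBR minus that in C57. It was called for 19 of 77 members, 11 with a positive value and 8 with a negative one. Of all genes tested 6.91% were positive and 7.36% negative, 14.3% together. The smallest p was that of Mrps11, which changed by 1.27 in BTBR and by -0.09 in C57, a difference of 1.35 ± 0.19 (adjusted p = 0.00153). Mrpl42 followed with 1.61 ± 0.25 (adjusted p = 0.00248) and Mrpl51 with -1.01 ± 0.15 (adjusted p = 0.0025). Mrpl30 stood at 0.99 ± 0.16 (adjusted p = 0.00353), Mrpl52 at -1.06 ± 0.20 (adjusted p = 0.00539) and Mrpl14 at 1.21 ± 0.23 (adjusted p = 0.00624).

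Between the strains under ASIV, 0 members were higher and 1 was lower in BTBR, Mrpl48, where 1.31% and 1.22% of all genes were called. With an unadjusted p under 0.05 there were 10 members, where 19.2% of all genes had one, and limma voom likewise called 0 higher and 1 lower. Mrpl48, a large-subunit protein that bacteria lack (chromosome 7, 100545751 to 100608301, minus strand), had 6.15, 7.04 and 7.33 FPKM in C57 ASIV and 3.49, 4.69 and 4.2 FPKM in BTBR ASIV. Both BTBR groups lay under both C57 groups, with 6.54 ± 0.506 FPKM in C57 vehicle and 3.43 ± 0.475 FPKM in BTBR vehicle. The log2 difference between the strains was -0.62 ± 0.11 under ASIV (adjusted p = 0.0152) and -0.77 ± 0.11 under vehicle (adjusted p = 0.000238). Under ASIV the call was lost without C57 ASIV replicate 2 or 3 or BTBR ASIV replicate 1 or 3 (adjusted p = 0.0524 to 0.0746). ASIV changed Mrpl48 in BTBR by 0.21 ± 0.11 (adjusted p = 0.183).

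Mrpl48 has a processed pseudogene, Mrpl48-ps, on chromosome 4, with 98.1% identity over 633 coding bases and 12 differing bases. The window of 90 bases with the most differences, from coding base 360 to 449 of Mrpl48, is shown 5′ to 3′ with the 7 differing bases in capitals. The pseudogene sequence is chr4:88599362-88599451, minus strand, GRCm38, and both come from the reference genome and not from BTBR mice.
Mrpl48: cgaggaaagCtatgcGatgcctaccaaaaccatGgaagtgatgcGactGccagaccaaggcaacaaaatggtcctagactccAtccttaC
Mrpl48-ps: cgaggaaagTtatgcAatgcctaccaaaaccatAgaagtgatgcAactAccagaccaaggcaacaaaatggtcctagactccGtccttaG
In the table the pseudogene lay opposite to the gene, higher in BTBR under vehicle by 1.11 ± 0.31 (adjusted p = 0.0134) and under ASIV by 1.47 ± 0.31 (adjusted p = 0.0306). The first call was lost without C57 vehicle replicate 2 (adjusted p = 0.0565), and the second without any C57 ASIV library or BTBR ASIV replicate 1 or 3 and with only the libraries compared (adjusted p = 0.0608 to 0.0964). Fragments of the gene and its copy together were 54.4 ± 4.59 CPM (fragments scaled to library depth but not to gene length) in C57 vehicle, 57 ± 5.33 in C57 ASIV, then 30.9 ± 3.94 for BTBR vehicle and 38.4 ± 2.37 for BTBR ASIV. The copy held 1.1 ± 0.477, 1.19 ± 0.407, 3.0 ± 0.134 and 4.73 ± 2.67 of them, so the sum stayed lower in both BTBR groups. How fragments that match both were assigned is not given in the sources used here, and assignment between them is uncertain.

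Patterns differed among the copies of other members. Gm5776, with 99.7% identity to Mrps33 over 318 bases and 1 differing base, was higher in BTBR vehicle by 0.92 ± 0.27 (adjusted p = 0.0174) and fell under ASIV in BTBR by 1.36 (SE 0.27, adjusted p = 0.0034). The first call was lost without C57 vehicle replicate 2 or BTBR vehicle replicate 2 or 3 (adjusted p = 0.0539 to 0.0699). Under ASIV the mean of Gm5776 was lower in BTBR (5.9 ± 2.38 FPKM) than in C57 (10.6 ± 2.24). That of Mrps33 was lower as well (11.7 ± 1.61 against 16.6 ± 4.02 FPKM), so the 2 were opposite under vehicle only. Mrps33 itself, of the small subunit, stood at -0.78 ± 0.19 under vehicle (adjusted p = 0.00616) and at 0.51 ± 0.19 for ASIV in BTBR (adjusted p = 0.0663). The latter was called with limma voom, with rescaling without the mitochondrial genome and without C57 ASIV replicate 3 or BTBR vehicle replicate 2 (adjusted p = 0.0209 to 0.0459). Mrps33 and Gm5776 together held 26.7 ± 4.51 CPM in C57 vehicle, 31.2 ± 7.4 in C57 ASIV, then 18.6 ± 3.19 for BTBR vehicle and 21.5 ± 3.44 for BTBR ASIV. Gm13552 (a copy of Mrps18b), Mrpl23-ps1 and Gm6304 (a copy of Mrpl27) were called in no comparison. In all, 30 members had a copy elsewhere in the genome with at least 85% identity over at least 150 coding bases, 55 copies of which 5 were in the table. The rest, among them copies of Mrpl42, Mrps36, Mrpl30 and Mrpl51, had no level to compare, so assignment is uncertain for these members too.

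**Figure D4:**
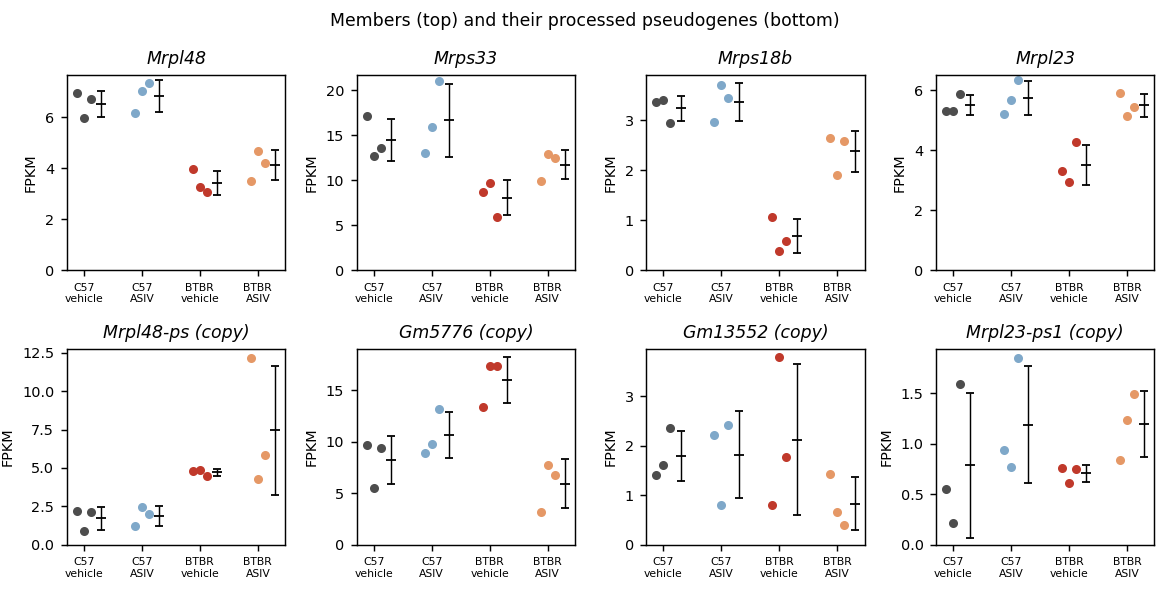
FPKM in each library (points) with the mean and SD of 3 libraries (bars) for 4 members (top) and a processed pseudogene of each (bottom); axes start at 0. Mrpl48 is lower and Mrpl48-ps higher in both BTBR groups, Gm5776 is higher in BTBR vehicle, and Gm13552 and Mrpl23-ps1 show no called difference.

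Members were short transcripts. The median length of the annotated transcript with the longest coding sequence was 1221 bases for members higher in BTBR vehicle, 1079 for lower ones, 2021 for those not called and 3051 for all tested protein-coding genes. Coding lengths had medians of 531, 573, 739.5 and 1398 bases in the same order. Median GC content was 50.7, 51.6, 49.5 and 50.9%. These medians carry no test.

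Other parts of mitochondrial translation were read from lists that were chosen with earlier results known. Proteins of the mitochondrial ribosome without an Mrp symbol numbered 5, of which 2 were higher and 1 lower in BTBR vehicle, beside 43.1% of all genes called. Dap3, a GTP-binding protein of the small subunit, went from 9.11 ± 0.377 to 15.8 ± 2.59 FPKM (0.72 ± 0.11, adjusted p = 0.000305) and fell to 9.75 ± 0.347 FPKM under ASIV (-0.63 ± 0.11, adjusted p = 0.00145). Chchd1 went the other way, from 19.8 ± 0.58 to 12.8 ± 2.59 FPKM (-0.61 ± 0.14, adjusted p = 0.00404), and rose to 19.5 ± 1.59 FPKM under ASIV (0.58 ± 0.14, adjusted p = 0.00836). Gadd45gip1 was higher in BTBR vehicle (0.49 ± 0.16, adjusted p = 0.0291), with groups that overlapped. Its call was lost without C57 vehicle replicate 1 or BTBR vehicle replicate 2 or 3, with only the libraries compared and with rescaling without the mitochondrial genome (adjusted p = 0.0637 to 0.124). Aurkaip1 stood at -0.07 ± 0.13 (adjusted p = 0.672) and Ptcd3 at -0.04 ± 0.09 (adjusted p = 0.738).

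Factors that assemble the mitochondrial ribosome were more often higher than lower in BTBR vehicle. Of 28 in the list, 13 were higher and 2 lower, beside 22.3% and 20.8% of all genes, with a median log2 difference of 0.28 beside 0.01. Under ASIV in BTBR 1 rose and 10 fell (median -0.18), beside 13.7% and 15.4% of all genes, and the list was not tested against other genes. Malsu1, which keeps the subunits apart until the large one is mature, went from 2.47 ± 0.261 to 6.21 ± 0.958 FPKM (1.05 ± 0.11, adjusted p = 2.46e-05) and to 3.33 ± 0.132 FPKM under ASIV. Mtg1, a GTPase of large-subunit assembly, went from 4.37 ± 0.322 to 7.15 ± 0.483 FPKM (0.60 ± 0.09, adjusted p = 0.00021) and to 4.16 ± 0.331. Of 6 proteins in the list that act together on the RNA of the large subunit, Rcc1l, Trub2 and Ngrn were higher by 0.61 ± 0.11, 0.43 ± 0.08 and 0.41 ± 0.11. They fell under ASIV (-0.37 ± 0.11, -0.44 ± 0.08 and -0.59 ± 0.11). The other 3, Fastkd2 (0.20 ± 0.10), Rpusd3 (0.04 ± 0.13) and Rpusd4 (-0.16 ± 0.14 under vehicle), were called in neither comparison. The fall of Rcc1l was not called without BTBR vehicle replicate 3 or BTBR ASIV replicate 1 or 2 and in 3 other alternatives (adjusted p = 0.0534 to 0.162), nor was the rise of Ngrn in BTBR vehicle without C57 vehicle replicate 3 (adjusted p = 0.0503). The count of higher factors was 6 when libraries were rescaled without the mitochondrial genome and 8 with only the libraries compared, and it ran from 6 to 15 with 1 library left out, the fewest without C57 vehicle replicate 3. Without C57 vehicle replicate 1 or 2 or BTBR vehicle replicate 2 it was 8. For ASIV the falls numbered 6 and 5 in the first 2 of these settings and 7 to 13 with 1 library left out, the fewest without BTBR ASIV replicate 2.

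Of the translation factors and aminoacyl-tRNA synthetases of mitochondria, 50% and 40% were called under vehicle, beside the 43.1% of all genes. For ASIV in BTBR 35.7% and 25% were called, beside 29.1% of all genes. Of 14 translation factors, 4 were higher and 3 lower in BTBR vehicle, and under ASIV 2 rose and 3 fell. Tsfm, an elongation factor, was higher by 0.74 ± 0.09 (adjusted p = 4.45e-05), and so was Lrpprc, which stabilises mitochondrial mRNAs (0.82 ± 0.11, adjusted p = 9.87e-05). Mrrf, which recycles ribosomes (-0.52 ± 0.10), Mtrf1, a release factor (-0.63 ± 0.14), and Oxa1l, which inserts nascent proteins into the membrane (-0.39 ± 0.09), were lower. Of 20 synthetases and related enzymes, 6 were higher and 2 lower in BTBR vehicle, and 0 rose and 5 fell under ASIV. Tars2 (0.66 ± 0.08), Hars2 (0.73 ± 0.10) and Aars2 (0.48 ± 0.10) were higher and Rars2 (-0.45 ± 0.10) was lower. Rescaling without the mitochondrial genome gave 3 higher and 3 lower synthetases, and 1 rise and 2 falls under ASIV. Without BTBR vehicle replicate 2 there were 3 falls of synthetases under ASIV, without C57 vehicle replicate 1 or 3 there was 1 lower synthetase in BTBR vehicle, and without BTBR ASIV replicate 2 or 3 there was 1 rise of a translation factor.

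**Figure D5:**
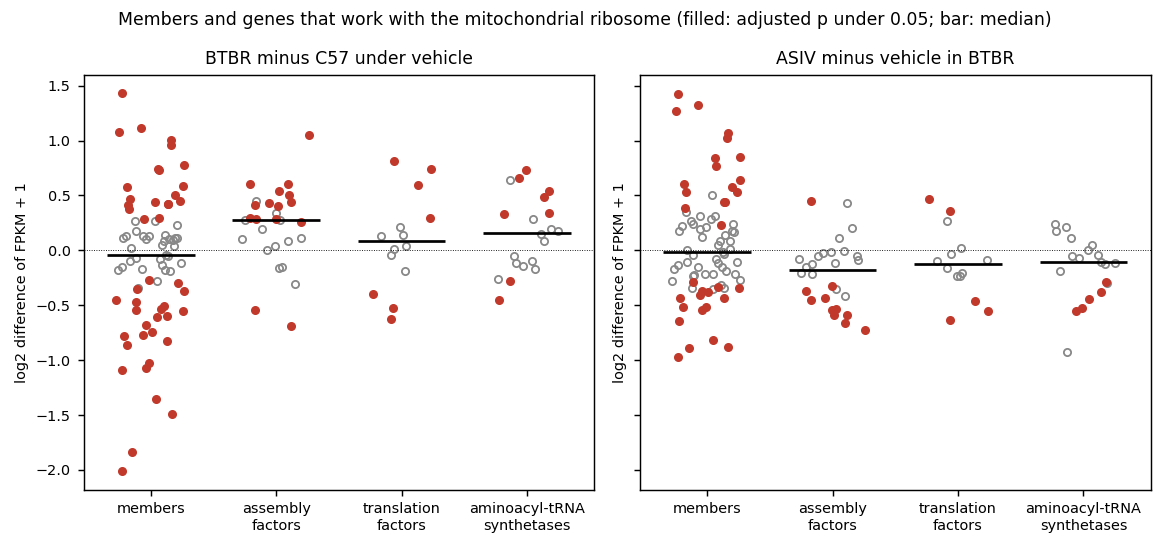
Log2 difference of FPKM + 1 for the 77 members and 3 lists of genes that work with the mitochondrial ribosome, between the strains under vehicle (left) and for ASIV in BTBR (right); filled points have an adjusted p under 0.05 and bars are medians. Assembly factors have a median of 0.28 on the left and -0.18 on the right, while the members have medians of -0.04 and -0.02 with a wider spread.

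The RNAs that the ribosome holds and reads are those of the mitochondrial genome. All 13 mRNAs were lower in BTBR vehicle than in C57 vehicle (median log2 difference -4.38) and all 13 rose under ASIV in BTBR (median 3.72). Differences of the ribosomal RNAs were smaller. mt-Rnr1, the RNA of the small subunit, had 2423 ± 136.2 FPKM in C57 vehicle, 1465 ± 510.8 in BTBR vehicle and 3350 ± 660.7 in BTBR ASIV (-0.79 ± 0.23 between strains, adjusted p = 0.0153, and 1.24 ± 0.23 under ASIV, adjusted p = 0.00201). mt-Rnr2, the RNA of the large subunit, stood at -0.22 ± 0.20 (adjusted p = 0.402) and 0.77 ± 0.20 (adjusted p = 0.0135). The second call was lost without BTBR ASIV replicate 3 and with only the libraries compared (adjusted p = 0.0547 and 0.0709). Under quantile normalization mt-Rnr2 turned to 0.68 and -0.12 and both calls of mt-Rnr1 were lost (adjusted p = 0.379 and 0.0801). Whereas those mRNAs moved in a single direction, the members split into 20 higher and 25 lower.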

How the data were processed

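The authors deposited a table of FPKM per gene for the 12 libraries. Reads were aligned with HISAT2 2.0.5 to mm10, per the submitters' processing notes, while the counter, annotation, strand and filters are not given in the sources used. Of the 17283 gene identifiers, 17273 matched GENCODE M21 and took symbols, coordinates and exon lengths from it, and 10 did not.

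Values were transformed to log2(FPKM + 1), a pseudocount of 1. limma 3.58.1 in R 4.3.3 was fitted to 4 group means (lmFit, robust eBayes with a trend, leaving 8 residual degrees of freedom) over all tested genes, with Benjamini-Hochberg adjustment per comparison. The script was tested on simulated data. The mean variance within a group was 0.0226 for C57 vehicle against 0.0642 for BTBR vehicle, and the fit shares 1 estimate.

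Multiplying FPKM by exon length and dividing by the step of low values gave whole fragments, within 0.02, in all libraries for 72 of 77 members, and hence the depth. Replicates differed by more than counting error (chi-square per gene 8.11 to 46.8), so none was a repeat deposit. Promoters and the pseudogene stretch were read from RefSeq and the reference genome. Python 3.11.15 with pandas 2.3.3 and matplotlib 3.10.9 was used.

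Members, lists and tests were chosen with earlier results of these data known. Named were the 8 higher and 8 lower called members with the largest difference and no overlap of groups, per comparison, the 6 smallest p of the interaction, the 5 highest and lowest levels, members of known role, and up to 4 genes per related list. Where no member was called, up to 3 per direction were named. Copies, overlapping genes, marker genes and Fastkd2, Rpusd3 and Rpusd4 were named after their values were seen. Alternatives covered the pseudocount, filter, scaling, tool, samples in the fit, a replicate block and leaving out each library.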

Additional observations from a re-analysis of the deposited data

Results flagged for a closer look

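For 19 members the response to ASIV differed between the strains by the interaction term of the limma fit (adjusted p under 0.05), which is why they are listed here. The value is the log2 response in BTBR minus that in C57. It was negative for 8 members, with -1.06 for Mrpl52, -1.01 for Mrpl51, -0.80 for Mrpl34, -0.73 for Mrps34, -0.69 for Mrps21, -0.62 for Mrpl24, -0.61 for Mrpl11 and -0.45 for Mrpl9.

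It was positive for 11 members. The values were 1.61 for Mrpl42, 1.46 for Mrps36, 1.35 for Mrps11, 1.21 for Mrpl14, 0.99 for Mrpl30 and 0.98 for Mrps18b. Smaller ones were 0.86 for Mrpl44, 0.76 for Mrpl54, 0.64 for Mrps22, 0.54 for Mrpl39 and 0.46 for Mrpl4. The interaction and the strain comparison under vehicle share 6 libraries with opposite signs, so their directions are not independent. Mrpl39, a large-subunit protein without a bacterial counterpart, had 6.2 ± 0.291 FPKM in C57 vehicle, 6.77 ± 1.25 in C57 ASIV, then 3.09 ± 0.456 for BTBR vehicle and 5.35 ± 0.217 for BTBR ASIV. Mrpl4, a conserved protein near the exit tunnel, had 15.2 ± 0.298, 14.4 ± 0.511, 12.2 ± 1.18 and 16.3 ± 0.692 FPKM in the same order.

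Of the 19 calls, 6 were lost in some alternatives. Mrpl34 lost its call without C57 vehicle replicate 2 or C57 ASIV replicate 1 (adjusted p = 0.051 to 0.0521), and Mrpl4 without C57 vehicle replicate 1 or 2 or C57 ASIV replicate 1 (adjusted p = 0.0533 to 0.0582). Mrps34 lost it without C57 vehicle replicate 2 or 3, C57 ASIV replicate 1 or BTBR ASIV replicate 2 and with rescaling without the mitochondrial genome (adjusted p = 0.058 to 0.0698). Mrpl9 lost it in 8 of the 12 omissions of 1 library, all but those of C57 ASIV replicate 1, BTBR vehicle replicate 1 or 3 and BTBR ASIV replicate 2, and in both rescalings without the mitochondrial genome (adjusted p = 0.0571 to 0.0961). Mrps22 lost it in 10 of the 12, all but those of C57 ASIV replicate 3 and BTBR vehicle replicate 1, and in 3 other alternatives (adjusted p = 0.0516 to 0.0968). Mrpl39 lost it in 10 of the 12, all but those of C57 ASIV replicate 3 and BTBR vehicle replicate 2, and in 4 other alternatives (adjusted p = 0.0548 to 0.107).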

How the results depend on the processing

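Counts of members moved by over 1.5 times under few settings. Rescaling each library on the FPKM outside the mitochondrial genome gave 27 rises and 9 falls for ASIV in BTBR, in place of 17 and 16. Rescaling on fragments, chosen after seeing the data, gave 17 and 14. With 1 library left out, members lower in BTBR under ASIV numbered 0 to 2, with 2 without C57 ASIV replicate 1 and 0 without C57 ASIV replicate 2 or 3 or BTBR ASIV replicate 1 or 3. Fewer libraries entered those fits. Over the same omissions, 17 to 20 members were higher and 21 to 25 lower in BTBR vehicle. For ASIV in BTBR 14 to 19 rose and 13 to 17 fell, and 13 to 23 had a called interaction. For 59 called values of named members, recomputed under each alternative, the call was kept 1262 times and lost 69 times, and no sign changed. The losses were those of Mrpl48 between strains under ASIV, Mrps12 under ASIV in BTBR, Mrps18c and Mrpl43 in BTBR vehicle, and the interactions of Mrpl34, Mrps34, Mrpl9, Mrpl4, Mrps22 and Mrpl39. For 11 values of named members that were not called, a call was gained 5 times, by Mrps33 under ASIV in BTBR and Mrpl58 in BTBR vehicle. Of all called members, 38 to 45 of 45 kept their call in BTBR vehicle and 25 to 33 of 33 under ASIV in BTBR. The fewest were with an FPKM of at least 5, which left 38 of the 45 to test, and with only the libraries compared. Signs turned for genes that are no members: mt-Rnr2 to 0.68 (strains) and -0.12 (ASIV) under quantile normalization, Ptcd3 to 0.0058 in TPM and Rpusd3 to -0.034 rescaled without the mitochondrial genome. With 1 library left out the strain difference under vehicle ran from -0.388 to 0.0437 for mt-Rnr2, -0.104 to 0.048 for Ptcd3, -0.0713 to 0.157 for Rpusd3 and -0.284 to 0.023 for Rpusd4. The cause was not tested. In the fit with the replicate number as a block, 20 members were higher and 24 lower in BTBR vehicle, and 16 rose and 15 fell under ASIV in BTBR, and the interactions of Mrps22 and Mrpl39 were not called (adjusted p = 0.0611 and 0.0651). Same-numbered libraries correlated at -0.17 to 0.28 over 18 pairs and 8 of 12 libraries correlated best with their own number, a hint from the data, not from the design. With 3 libraries a group, 14 fragments in a library for the lowest member limit precision, and 5 members did not come out as whole fragments.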

Other observations

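Exons of 32 members overlap those of another gene in GENCODE M21, 27 of them on the opposite strand. Mrpl43 shares 33.4% of its exon bases with Twnk, the helicase of mitochondrial DNA. Twnk had 3.58 ± 0.271 FPKM in C57 vehicle, 3.52 ± 0.058 in C57 ASIV, then 6.14 ± 0.319 for BTBR vehicle and 4.45 ± 0.423 for BTBR ASIV. It was higher in BTBR vehicle by 0.64 ± 0.09 on the log2 scale (limma, adjusted p = 0.000142), fell by 0.39 under ASIV in BTBR (adjusted p = 0.00595), and had groups that did not overlap in either. Mrpl43 was higher in BTBR vehicle by 0.29 (adjusted p = 0.0331), a call lost in 7 alternatives (adjusted p = 0.051 to 0.228), among them leaving out C57 vehicle replicate 1 or 2 or BTBR vehicle replicate 1. The fall of Twnk was not called when libraries were rescaled without the mitochondrial genome (adjusted p = 0.055). Mrps25 shares 69.8% of its exon bases with Nr2c2, a nuclear receptor gene, which was called in no comparison, as was Mapk8ip3, the partner of Mrps34. Without the strand of counting, reads of a gene and of its opposite partner cannot be told apart.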
